A study of Mus musculus with 50 samples.

Results

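The 10 imprinted growth genes H19, Igf2, Peg3, Mest, Cdkn1c, Plagl1, Grb10, Peg10, Sgce and Ndn were followed through bulk RNA-seq of mouse sarcomas. Each was taken by its gene symbol from the 37469 genes counted, and each matched 1 gene. All 10 passed the filter on low counts and were among the 19327 genes tested. The genes of the Dlk1-Dio3 domain were not included.

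An imprinted gene is expressed mainly from the allele of 1 parent, and which allele is silent is set by DNA methylation laid down in the germ line. Many imprinted genes act on fetal growth. As a broad rule the paternally expressed ones, such as Igf2, Peg3, Mest, Plagl1 and Peg10, favor growth, and maternally expressed ones, such as H19, Cdkn1c and Grb10, restrain it, with most of them turned down after birth.

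RNA was sequenced from 48 p53/MCA sarcomas and from 2 single libraries of a line named 402230. Primary tumors were induced in Trp53 fl/fl mice of the 129/SvJae background, 6 to 10 weeks old, by injecting an adenovirus carrying Cre and then the carcinogen 3-methylcholanthrene (MCA) into the gastrocnemius, a muscle of the calf. Transplant tumors grew in the same muscle of syngeneic mice from cells of line 402230, so that all transplants trace to 1 primary sarcoma. Tumors were given 0 or 20 Gy and an antibody to PD-1 or its isotype control, and were taken 3 days later. Primary tumors numbered 8 per treatment and transplants 4, for 32 and 16 in total, each from its own mouse. The groups are called isotype at 0 Gy (untreated), anti-PD-1 at 0 Gy, isotype at 20 Gy and anti-PD-1 at 20 Gy.

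The tumor libraries held 31810461 to 54008259 counted reads. Levels are given as CPM, the counts of each library scaled to a common library size by TMM, and differences as log2 fold changes with their standard error (SE) from edgeR. A gene was called when its Benjamini-Hochberg adjusted p, over all genes tested, was under 0.05. In bulk tumors, fewer cells of a type and less RNA per cell cannot be told apart.

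The marker genes of the 2 single libraries went against their labels. The library labelled parental tumor had 5 counts of Ptprc, the pan-leukocyte marker, and 5 counts of Pecam1, an endothelial marker. The library labelled cell line had 3779 and 4816 counts of the same genes, with Ptprc at 81.9 CPM and Pecam1 at 104.4 CPM, inside the ranges of the tumors. Both are therefore named below by their labels only. They entered no main test, and the library labelled parental tumor was added to the untreated primary tumors in 1 alternative fit.

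Per kilobase of exon, H19, a long noncoding RNA, had the highest median of the 10 genes in both models, at 326 CPM per kb in primary tumors and 310 in transplants. In primary tumors Cdkn1c (47.0), Grb10 (27.1), Ndn (18.6), Mest (10.4), Peg10 (9.90) and Sgce (4.73) came next, and Igf2 (0.954), Plagl1 (0.936) and Peg3 (0.318) were the lowest. In transplants the order by median CPM per kb was H19, Grb10 (13.6), Mest (12.7), Cdkn1c (11.1), Ndn (2.44), Peg10 (1.01), Sgce (0.918), Peg3 (0.727), Igf2 (0.532) and Plagl1 (0.358). The ranges of neighbors in these orders overlapped, except that H19 in transplants lay wholly above Grb10. The level of Igf2 may be too low as counted, because 62.8% of its exon bases also belong, on the same strand, to the annotated gene Gm49394, which had a median of 0 counts.

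The genes lie at a few loci of the mouse genome (build GRCm38, called mm10 by the authors). On chromosome 7, H19 (chr7:142575529-142578143) and Igf2 (chr7:142650766-142666816) lie in 1 cluster with Cdkn1c (chr7:143458339-143461050), all on the minus strand, while Peg3 (chr7:6703892-6730431, minus strand) and Ndn (chr7:62346569-62350262, plus strand) lie apart. On chromosome 6, Peg10 (chr6:4747306-4760517, plus strand) and Sgce (chr6:4674350-4747207, minus strand) start next to each other and are read in opposite directions, and Mest is at chr6:30723547-30748465 on the plus strand. Plagl1 is at chr10:13060504-13131694 on the plus strand and Grb10 at chr11:11930508-12038683 on the minus strand.

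The stretch just before a gene's start shows where its CG dinucleotides, the sites of DNA methylation, are placed. RefSeq start windows (GRCm38.p6) matched 6 of the 10 genes. The 250 bases before 4 starts are shown for 3 genes whose levels differed between groups, 5′ to 3′ on the gene's own strand and with every CG in capitals. The first Grb10 window is chr11:12037421-12037670, the second is chr11:12027972-12028221, the Mest window is chr6:30737800-30738049 and the Igf2 window is chr7:142657497-142657746.
Grb10, upstream start: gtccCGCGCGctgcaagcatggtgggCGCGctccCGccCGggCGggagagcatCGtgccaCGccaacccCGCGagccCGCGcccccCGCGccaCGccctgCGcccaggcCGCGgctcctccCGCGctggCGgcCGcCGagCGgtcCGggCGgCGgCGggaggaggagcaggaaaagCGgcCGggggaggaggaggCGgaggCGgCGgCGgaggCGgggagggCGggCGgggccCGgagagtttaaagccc
Grb10, downstream start: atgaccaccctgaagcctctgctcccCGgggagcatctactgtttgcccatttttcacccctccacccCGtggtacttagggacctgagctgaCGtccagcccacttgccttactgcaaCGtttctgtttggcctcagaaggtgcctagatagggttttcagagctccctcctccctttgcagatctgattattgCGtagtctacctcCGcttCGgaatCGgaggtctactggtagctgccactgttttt
Mest: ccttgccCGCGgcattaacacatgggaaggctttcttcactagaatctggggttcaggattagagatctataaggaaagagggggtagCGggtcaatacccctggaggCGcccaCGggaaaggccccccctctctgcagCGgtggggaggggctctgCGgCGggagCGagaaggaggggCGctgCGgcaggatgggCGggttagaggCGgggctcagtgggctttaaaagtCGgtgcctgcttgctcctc
Igf2: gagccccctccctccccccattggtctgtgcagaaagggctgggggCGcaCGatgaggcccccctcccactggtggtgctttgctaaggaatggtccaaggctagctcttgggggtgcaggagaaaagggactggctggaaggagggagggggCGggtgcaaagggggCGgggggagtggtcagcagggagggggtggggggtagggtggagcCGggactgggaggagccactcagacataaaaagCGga
The upstream Grb10 window held 40 CG, more than 98.7% of the 32851 windows, whose median was 6, while the downstream Grb10 window held 8. The Mest window shown held 14 CG and the Igf2 window shown 6. Mest had 3 windows in all, with 7, 14 and 14 CG, and Igf2 had 4, with 1, 6, 10 and 22. The GC box GGGCGG, searched on both strands, was found in the upstream Grb10 window and in the Mest and Igf2 windows shown but not in the downstream Grb10 window. It was in all 3 Mest windows, in 2 of the 4 Igf2 windows and in 32.7% of all windows. DNA methylation was not measured in these libraries.

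Transplants were compared with primary tumors to see which of the 10 genes differed between the models. All transplants trace to 1 primary sarcoma, so model and line of origin cannot be told apart here. The SE and p-values cover the spread between tumors, not between lines. Averaged over the 4 treatments, 7 of the 10 genes were called and all 7 were lower in transplants: Igf2, Cdkn1c, Plagl1, Grb10, Peg10, Sgce and Ndn. None was called higher, and H19, Peg3 and Mest were not called. The background was 34.8% of all genes called in either direction, 15.7% called higher and 19.1% called lower. The median log2 fold change of the 10 genes was -1.18, against -0.00 for all genes tested. The 10 genes were chosen with earlier results of these data known. The counts and medians of the set are therefore a description and not a test.

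**Figure D1:**
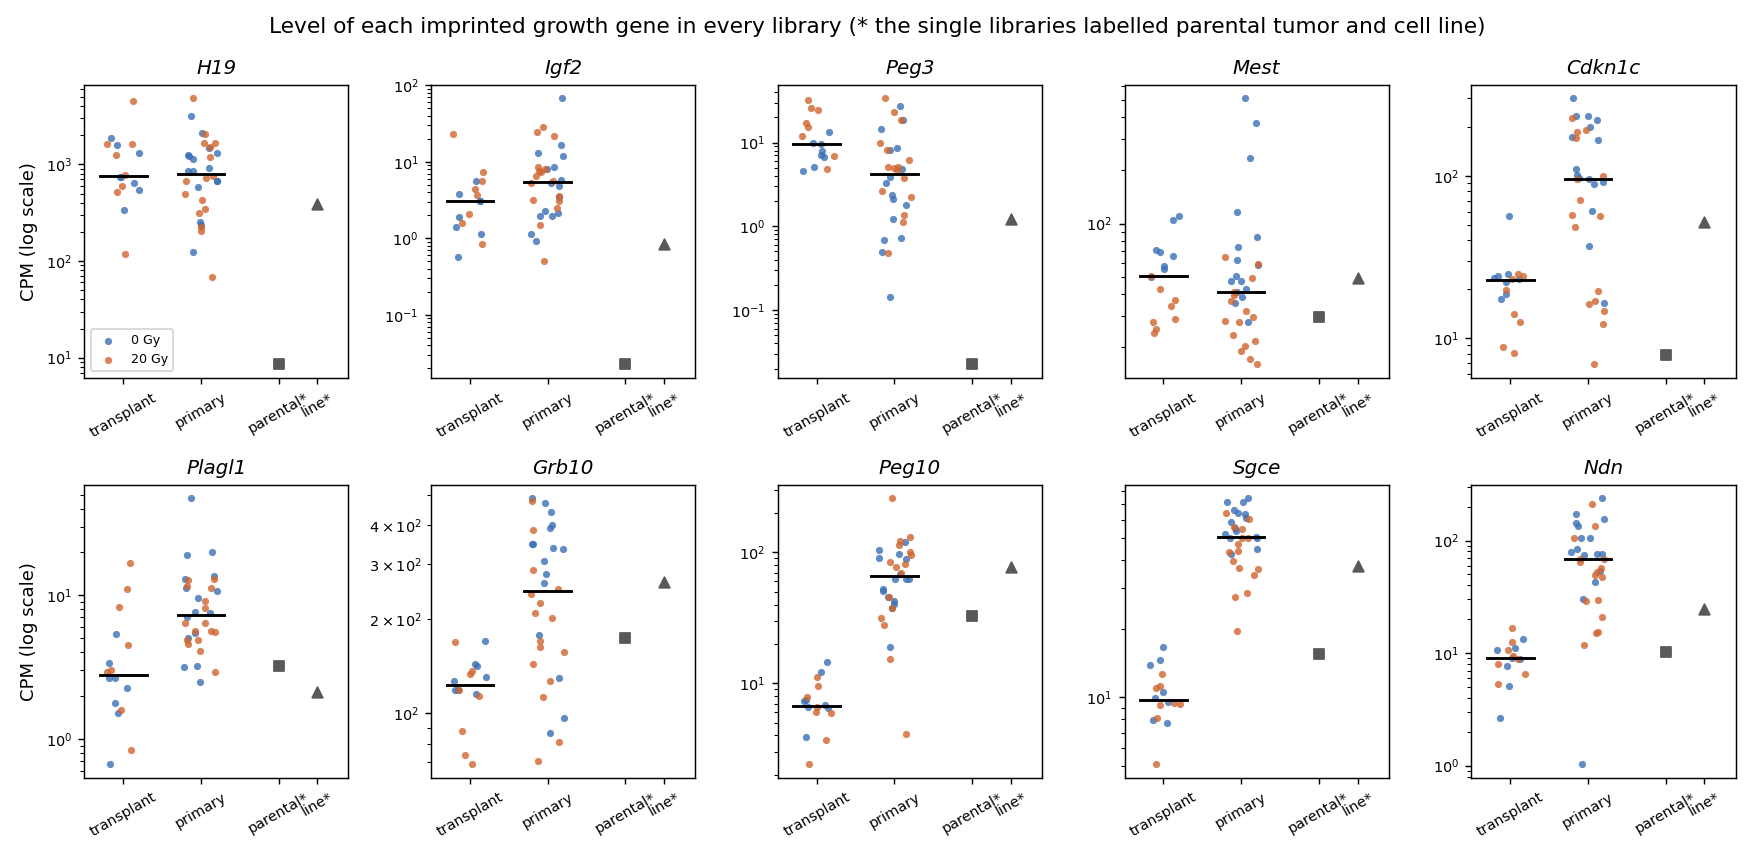
CPM on a log axis for each gene in the 16 transplants and the 32 primary tumors (points, colored by dose, with the median as a bar) and in the 2 single libraries named by their labels (square, labelled parental tumor; triangle, labelled cell line). For Sgce every transplant lies at or under 16.6 CPM and every primary tumor at or above 19.5 CPM.

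Sgce, which encodes epsilon-sarcoglycan of the dystrophin-associated complex and is expressed from the paternal allele, separated the 16 transplants from the 32 primary tumors completely. The library labelled parental tumor, which is not among the 32, had 15.5 CPM, under all of them. The 4 untreated transplants had 7.95, 10.5, 14.6 and 7.74 CPM, and the 8 untreated primary tumors ran from 44.4 to 74.6 CPM with a median of 59.8. The groups did not overlap here or under any of the other treatments, and over all 48 tumors the highest transplant (16.6 CPM) was under the lowest primary tumor (19.5 CPM). Of all genes tested, 0.0362% had all 16 transplants under all 32 primary tumors, and Sgce was the 1 member among them. Within single treatments the share of all genes was larger. It was 4.36% in untreated tumors, 3.3% in anti-PD-1 at 0 Gy, 2.33% in isotype at 20 Gy and 1.28% in anti-PD-1 at 20 Gy. Over the 4 treatments the averaged difference of Sgce was -2.27 ± 0.13 on the log2 scale (SE; adjusted p = 2.67e-17 by edgeR), which is 4.83-fold lower.

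Peg10, a gene derived from a retrotransposon and needed for the placenta, shares its start region with Sgce and is also paternally expressed. The 4 untreated transplants had 6.87, 7.38, 14.5 and 6.43 CPM, and the untreated primary tumors 18.9 to 98.04 CPM with a median of 48.9. These groups did not overlap, nor did those of anti-PD-1 at 0 Gy and isotype at 20 Gy. Of all genes, 4.36%, 3.3% and 2.33% had every transplant under every primary tumor in these treatments. In anti-PD-1 at 20 Gy the transplants had 7.87, 3.72, 2.41 and 5.90 CPM, and 1 primary tumor lay among them at 4.11 CPM, with the next at 31.4. That tumor, replicate 4, also had the highest summed skeletal muscle CPM of the 48 (82198), and its part in this value was not tested. The averaged difference of Peg10 was -3.32 ± 0.32 on the log2 scale (edgeR adjusted p = 9.11e-11), the largest of the 10.

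Ndn encodes necdin, a paternally expressed MAGE family protein that restrains cell proliferation. The 4 untreated transplants had 5.15, 8.89, 11.03 and 9.10 CPM, and the untreated primary tumors 1.03 to 239 CPM with a median of 80.0. All 4 transplants were under 7 of the 8 primary tumors, and the eighth, at 1.03 CPM, was lower than every transplant. The groups did not overlap in anti-PD-1 at 0 Gy, where the primary tumors began at 42.4 CPM, or in isotype at 20 Gy, where they began at 15.1 CPM. Of all genes, 3.3% and 2.33% had every transplant under every primary tumor in these treatments. The averaged difference of Ndn was -3.09 ± 0.38 on the log2 scale (edgeR adjusted p = 2.99e-08).

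Cdkn1c encodes p57, a maternally expressed inhibitor of cyclin-dependent kinases. The 4 untreated transplants lay close together, at 22.3, 23.2, 23.4 and 24.7 CPM, while the untreated primary tumors spread from 16.4 to 300 CPM with a median of 96.4. The groups overlapped through 1 primary tumor, and all 4 transplants were under the primary median in each treatment. Cdkn1c shares 625 exon bases with the antisense gene Gm44732, whose reads may not have been told apart. Averaged over treatments the log2 fold change was -2.33 ± 0.38 (edgeR adjusted p = 5.89e-06).

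Grb10, which encodes an adaptor that dampens insulin and IGF receptor signaling, had 115.7, 141.97, 118.5 and 127.3 CPM in the untreated transplants and 86.4 to 490 CPM with a median of 294 in the untreated primary tumors. The ranges overlapped, and they were apart only in anti-PD-1 at 0 Gy, where the transplants reached 171 CPM and the primary tumors began at 179. In that treatment 3.3% of all genes had every transplant under every primary tumor. Averaged over treatments the log2 fold change was -1.04 ± 0.20 (edgeR adjusted p = 9.82e-05).

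Plagl1 encodes the zinc finger transcription factor ZAC1, which regulates other imprinted genes. The untreated transplants had 0.668, 1.51, 3.38 and 2.26 CPM and the untreated primary tumors 2.50 to 47.4 CPM with a median of 11.2, so that 3 of 4 transplants were under every primary tumor. The irradiated transplants were more spread, with 1.59, 16.6, 3.02 and 8.22 CPM under anti-PD-1, and there 1 transplant was above every primary tumor. Averaged over treatments the log2 fold change was -1.24 ± 0.31 (edgeR adjusted p = 0.00177).

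Igf2, the fetal growth factor that signals through the IGF1 receptor, was near the threshold. All 16 transplants lay between 0.573 and 22.7 CPM with a median of 3.04, and the 32 primary tumors between 0.508 and 67.5 with a median of 5.46. The ranges overlapped under every treatment. The averaged log2 fold change was -1.13 ± 0.45 (edgeR adjusted p = 0.0457), and the call was lost, among other changes, when any 1 of 22 of the 48 libraries was left out (adjusted p up to 0.0971).

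H19, Peg3 and Mest were not called between the models. H19 had medians of 764 CPM in transplants and 803 CPM in primary tumors, with ranges of 120 to 4551 and 68.6 to 4846 CPM, and an averaged log2 fold change of 0.11 ± 0.38 (edgeR adjusted p = 0.855) whose sign turned (-0.37) with the muscle level as a covariate. Peg3, a paternally expressed zinc finger protein, had medians of 9.69 CPM in transplants and 4.24 CPM in primary tumors, and 16 of the 32 primary tumors were under every transplant. Its averaged log2 fold change was 0.88 ± 0.41 (edgeR adjusted p = 0.0875). Limma voom called it higher (1.505, adjusted p = 0.00231), as did edgeR without untreated primary tumor 7 (1.08, adjusted p = 0.0258). With the muscle level as a covariate it was 0.68 (edgeR adjusted p = 0.219). Mest, a paternally expressed alpha/beta hydrolase, gave -0.26 ± 0.27 (edgeR adjusted p = 0.493) and 0.02 with voom.

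**Figure D2:**
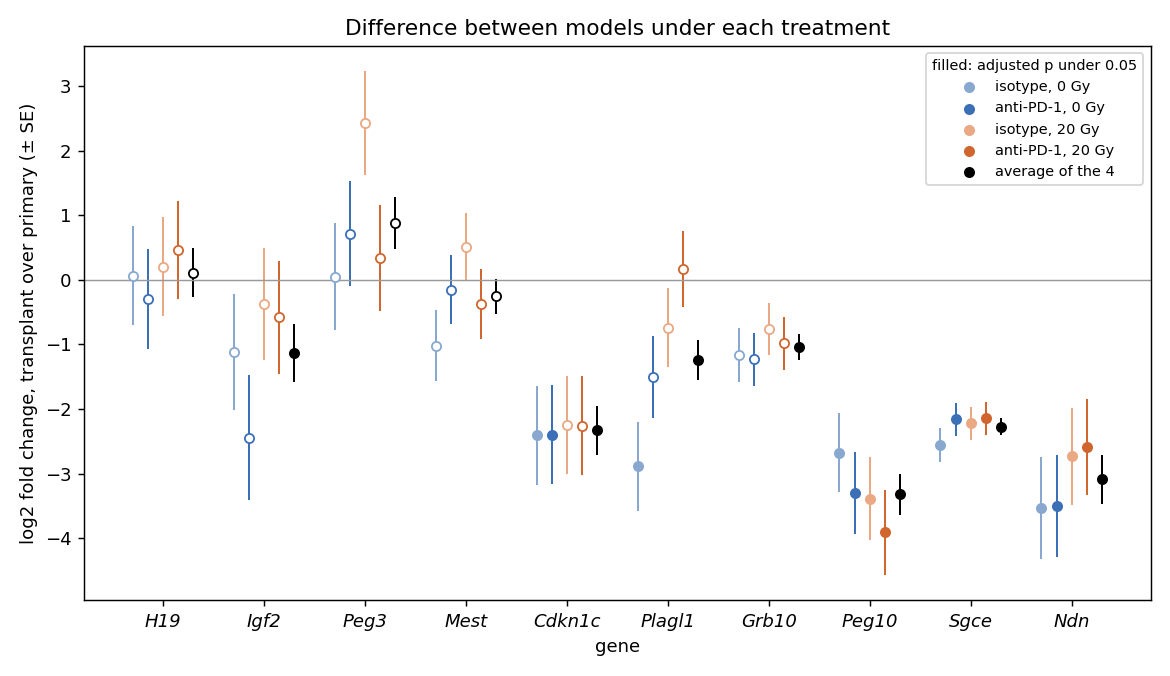
Log2 fold change of each gene, transplant over primary, with its SE, under each treatment and averaged over the 4; filled points had an adjusted p under 0.05. Peg10, Sgce and Ndn are filled under all 4 treatments, Cdkn1c in both treatments at 0 Gy, Plagl1 in untreated tumors, and H19, Peg3 and Mest nowhere.

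Within each treatment, with 4 transplants against 8 primary tumors, fewer genes were called. In untreated tumors 5 of the 10 were lower in transplants, against a background of 10.3% called (3.88% higher and 6.41% lower): Ndn (log2 fold change -3.53 ± 0.79), Plagl1 (-2.88 ± 0.69), Peg10 (-2.68 ± 0.61), Sgce (-2.56 ± 0.26) and Cdkn1c (-2.41 ± 0.77). Grb10 missed the threshold (-1.16 ± 0.41, edgeR adjusted p = 0.0614). In anti-PD-1 at 0 Gy 4 were lower, against 7.35% called (3.39% higher and 3.96% lower): Ndn (-3.50 ± 0.79), Peg10 (-3.30 ± 0.64), Cdkn1c (-2.40 ± 0.77) and Sgce (-2.16 ± 0.26). Grb10 again missed it (-1.23 ± 0.41, edgeR adjusted p = 0.0576), and DESeq2 called it in both treatments (adjusted p = 0.0291 and 0.0177).

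After 20 Gy the called genes were Peg10, Sgce and Ndn under either antibody. In isotype at 20 Gy, 3 of the 10 were lower in transplants, against 4.87% called (2.47% higher and 2.4% lower): Peg10 (-3.39 ± 0.64), Ndn (-2.73 ± 0.75) and Sgce (-2.22 ± 0.26). In anti-PD-1 at 20 Gy the same 3 of 10 were lower, against 6.76% called (3.04% higher and 3.72% lower): Peg10 (-3.91 ± 0.66), Ndn (-2.59 ± 0.74) and Sgce (-2.14 ± 0.26). Cdkn1c had differences of like size that missed the threshold, -2.25 ± 0.76 with isotype (edgeR adjusted p = 0.0762) and -2.26 ± 0.76 with anti-PD-1 (edgeR adjusted p = 0.0602), and DESeq2 called both (adjusted p = 0.0116 and 0.0106). Peg3 in isotype at 20 Gy was 2.43 ± 0.80 higher in transplants on the log2 scale (edgeR adjusted p = 0.0695), where 3 of 4 transplants, at 25.8, 24.6 and 16.9 CPM, were above every primary tumor and the fourth was at 4.77. DESeq2 (adjusted p = 0.0358), limma voom (0.0444) and a fit of these groups alone (0.0469) called it.

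Calls for Cdkn1c at 0 Gy and for Ndn at 20 Gy were lost when single tumors were left out, while the fold changes stayed in the same direction. The untreated Cdkn1c call was lost without any 1 of the 4 transplants or without primary tumors 1, 3 or 6 (adjusted p 0.0511 to 0.0988), with a log2 fold change of -2.58 to -2.08 over all 12 tumors left out in turn, and the anti-PD-1 call without transplants 1, 3 or 4 or primary tumors 1, 4, 7 or 8 (0.0538 to 0.163), with -2.95 to -2.22. The Ndn call in isotype at 20 Gy was lost without any 1 of the 4 transplants (0.0521 to 0.113; log2 fold change -2.95 to -2.41 over the 12), and in anti-PD-1 at 20 Gy without any 1 of the 4 or without primary tumor 1 (0.0528 to 0.116; -2.88 to -2.04). At 0 Gy Ndn stayed called without each of the 12 tumors, under either antibody. In anti-PD-1 at 20 Gy, a fit of its own 12 tumors alone left Peg10 (adjusted p = 0.0914), Sgce (0.0698) and Ndn (0.146) uncalled, and the muscle covariate left Ndn uncalled (0.0529). With limma voom Ndn was called neither in untreated tumors (adjusted p = 0.0798) nor at 20 Gy with isotype (0.156) or anti-PD-1 (0.173), and Cdkn1c was not called in untreated tumors (0.0958).

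Marker genes of cell types were read beside these differences. In the averaged comparison 15.7% of all genes were called higher and 19.1% lower. Of 9 skeletal muscle genes 0 were called between the models by edgeR (averaged). Their summed level had a median of 5481 CPM in transplants (77.8 to 20034) and 1706 CPM in primary tumors (13.0 to 82198), and their median log2 fold change was 0.44 averaged and 1.83 in untreated tumors. With that muscle level as a covariate, the averaged log2 fold changes were -2.23 for Sgce, -3.29 for Peg10, -2.84 for Ndn, -2.36 for Cdkn1c, -1.42 for Plagl1 and -0.94 for Grb10, all 6 still called. The 6 fibroblast and mesenchyme genes (Col1a1, Col1a2, Col3a1, Pdgfra, Pdgfrb and Vim) were all lower in transplants, with a summed level of 5476 to 26034 CPM against 9203 to 61058 CPM. The library labelled parental tumor, nearly without leukocyte and endothelial counts, had 5144 CPM of these 6 genes. Whether tumor cells or other cells gave their RNA cannot be told from bulk tumors. All 5 genes of regenerating muscle were higher in transplants, at 2.71 to 135.5 CPM summed against 0.182 to 223. Among 6 leukocyte genes 2 were higher in transplants, and among 5 endothelial genes 1 was lower. The part of the mesenchymal and regenerating muscle genes in the differences of the imprinted genes was not tested.

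The 2 single libraries gave values for line 402230 itself, each without a replicate and with exact binomial 95% intervals that cover counting error only. Peg10 was at 32.8 CPM (95% interval 31.1 to 34.5) in the library labelled parental tumor and at 77.2 CPM (74.7 to 79.8) in the one labelled cell line, both above all 16 transplants. Grb10 was at 174 CPM (171 to 178), an interval that includes the highest transplant, and at 264 CPM (259 to 269), above all of them. Sgce was at 15.5 CPM (14.4 to 16.7) in the library labelled parental tumor, under all 32 primary tumors and above 15 of 16 transplants, and at 37.6 CPM (35.8 to 39.4) in the other, above all transplants. Ndn was at 10.3 CPM (9.38 to 11.3) and 24.5 CPM (23.1 to 25.9), the first among the transplants and the second above them.

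Other members were far lower in the library labelled parental tumor. H19 had 8.49 CPM there (7.66 to 9.39), under all 48 tumors, and 387 CPM (382 to 393) in the library labelled cell line. Igf2 and Peg3 had 1 count each in the first library, or 0.0223 CPM (0.000566 to 0.124), under all 48 tumors, and 39 and 56 counts in the second. The summed skeletal muscle level was 3.51 CPM in the first library and 242 CPM in the second. Mest had 29.8 CPM (28.2 to 31.5) and 49.6 CPM (47.5 to 51.6), both inside the range of each tumor model. Cdkn1c had 7.87 CPM (7.07 to 8.73) and 52.1 CPM (50.1 to 54.3), the first with an interval that includes the lowest transplant and the second above 15 of the 16. Plagl1 had 3.22 CPM (2.71 to 3.79) and 2.12 CPM (1.72 to 2.59), both inside the range of the transplants.

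The second question was whether the 10 genes changed 3 days after 20 Gy. In primary tumors, with both antibodies averaged, 2 of the 10 were called and both were lower, against a background of 31% of all genes called, 16.8% higher and 14.2% lower. These were Mest and Sgce. In transplants 0 of the 10 were called by edgeR and 0 by DESeq2, against 7.23% of all genes (5.85% higher and 1.38% lower), with 2 at an unadjusted p under 0.05 (Mest and Plagl1).

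Mest had the largest change of the 10 in primary tumors after radiation. In primary tumors with isotype it ran from 27.8 to 509 CPM with a median of 67.8 at 0 Gy, and from 16.02 to 39.7 CPM with a median of 24.8 at 20 Gy. With anti-PD-1 it ran from 40.9 to 234 CPM with a median of 48.9 at 0 Gy, and from 20.4 to 64.7 CPM with a median of 36.6 at 20 Gy. The groups overlapped under both antibodies, and the highest 3 tumors, at 509, 368 and 234 CPM, were all unirradiated. The log2 fold change was -1.77 ± 0.32 (edgeR adjusted p = 3.49e-05), a level 3.40-fold lower, and it stayed called under all 7 alternatives and without each of the 32 primary tumors.

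In transplants Mest was at 55.3, 104.9, 70.5 and 65.4 CPM with isotype at 0 Gy and at 25.5, 36.8, 50.6 and 34.4 CPM with isotype at 20 Gy, without overlap. With anti-PD-1 it was at 57.2, 49.9, 110.7 and 69.1 CPM at 0 Gy and at 27.9, 42.5, 24.2 and 29.0 CPM at 20 Gy, again without overlap. The share of all genes that separated by dose in this way was not determined. The log2 fold change was -1.11 ± 0.44 (edgeR adjusted p = 0.126) with the spread shared by all 8 groups, and -1.09 (adjusted p = 0.00211) when only the 4 transplant groups were fitted. The radiation effect on Mest differed between the models by 0.66 ± 0.53 (edgeR adjusted p = 0.786). Mest shares 912 exon bases with Copg2, which lies on the opposite strand, and how the counting treated strand was not given, so reads there could belong to either gene.

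**Figure D3:**
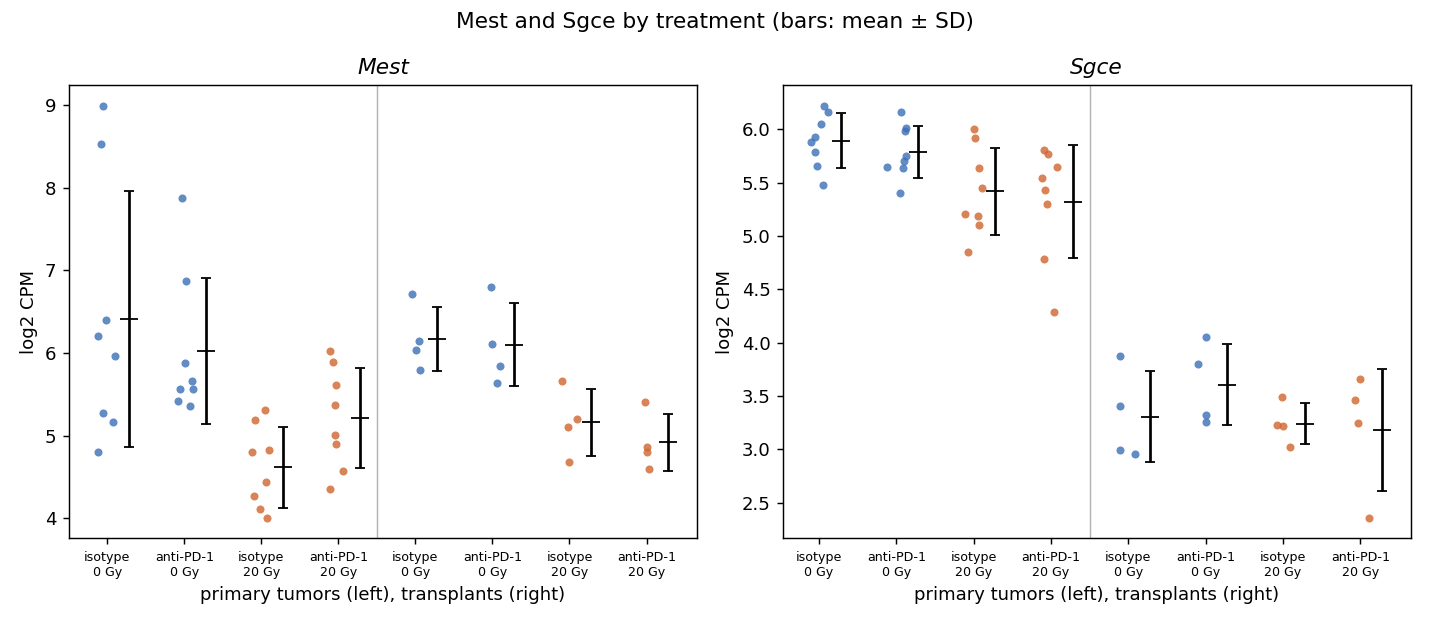
Log2 CPM of Mest and Sgce in each tumor by model and treatment, with the mean and SD of each group. Mest is lower at 20 Gy than at 0 Gy under both antibodies in both models, while the model difference of Sgce is larger than its change with dose.

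Sgce fell in primary tumors from 60.2 ± 10.4 CPM (SD, n = 8) to 44.3 ± 12.8 with isotype, and from 55.8 ± 9.58 to 42.0 ± 12.8 with anti-PD-1, with overlapping groups. The log2 fold change was -0.43 ± 0.13 (edgeR adjusted p = 0.0125). This call stayed in 6 of 7 alternatives and without each of the 32 primary tumors. It was lost with the library labelled parental tumor added (edgeR adjusted p = 0.0727), whose markers went against that label. In transplants the log2 fold change was -0.25 ± 0.19 (edgeR adjusted p = 0.525). Grb10 and Cdkn1c in primary tumors had -0.56 ± 0.23 (edgeR adjusted p = 0.0522) and -0.78 ± 0.39 (edgeR adjusted p = 0.125). Without anti-PD-1 at 20 Gy replicate 1, 4 members were called in primary tumors, where 33% of all genes were. In primary tumors 7 of 9 skeletal muscle genes and 4 of 6 leukocyte genes rose after radiation, where 16.8% of all genes were called higher. With the muscle level as a covariate the log2 fold change of Mest was -1.77.

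Plagl1 after radiation in transplants had a log2 fold change of 1.27 ± 0.49 and was not called (edgeR adjusted p = 0.116). The test of the difference between models was 1.91 ± 0.60 (unadjusted p = 0.0027, edgeR adjusted p = 0.235). For that difference 0 of the 10 were called by edgeR and by DESeq2, 1 had an unadjusted p under 0.05, and 0.0259% of all genes were called (0.0155% higher and 0.0103% lower).

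Anti-PD-1 was compared with isotype within each model, with both doses averaged. In primary tumors 0 of the 10 were called by edgeR and 0 by DESeq2, against 0.0155% of all genes (0.0155% higher and 0% lower), and 1 had an unadjusted p under 0.05. That gene was Igf2 (log2 fold change 1.28 ± 0.50, unadjusted p = 0.0138, edgeR adjusted p = 0.617), whose highest primary tumors with anti-PD-1 had 67.5 CPM at 0 Gy and 28.6 CPM at 20 Gy against 13.0 and 8.63 CPM with isotype. In transplants 0 of the 10 were called by edgeR and by DESeq2, against 0% of all genes, and 0 had an unadjusted p under 0.05.

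The spread between tumors of the same group was wide for most of the 10 genes. In primary tumors the SD within groups on the log2 scale ran from 0.38 for Sgce to 1.70 for Peg3, and 9 of the 10 were above the median of all genes tested (0.52). Peg3 (1.70), Igf2 (1.55), Ndn (1.53), H19 (1.41) and Cdkn1c (1.39) were above 93% of all genes. In transplants, which share 1 line of origin, H19 (1.31), Igf2 (1.31) and Plagl1 (1.21) stayed wide, while Peg3 (0.81), Ndn (0.68), Cdkn1c (0.63), Peg10 (0.61), Mest (0.42) and Grb10 (0.37) had a smaller SD than in primary tumors and Sgce (0.42) a slightly larger one. The SD was larger in primary tumors for 8 of the 10 genes, the exceptions being Plagl1 and Sgce, and for 79.8% of all genes.

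H19 and Igf2, neighbors that share enhancers and are expressed from opposite alleles, varied together. In the 32 primary tumors Pearson's r of their log2 CPM was 0.67 and Spearman's rho 0.66 (permutation test, adjusted p = 0.00028 for each). Among the 16 transplants r was 0.89 and rho 0.91 (permutation test, adjusted p = 0.00028 and 0.00014). The relation held with the 2 most distant libraries by H19 left out (r = 0.58 in primary tumors and 0.88 in transplants) and for deviations from the mean of each treatment group (r = 0.68 and 0.94). These p-values are two-sided, from 100000 permutations, and adjusted over a family of 28 relations.

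Both genes were read against skeletal muscle, since the tumors grew in it. H19 followed the mean log2 CPM of the 9 muscle genes with r = 0.66 and rho = 0.63 in primary tumors (permutation test, adjusted p = 0.00039 and 0.0013), and with r = 0.88 and rho = 0.92 in transplants (adjusted p = 0.00028 and 0.00014). Without the 2 libraries at the ends r was 0.65 and 0.85. Igf2 followed the muscle genes in transplants (r = 0.77, rho = 0.77; permutation test, adjusted p = 0.0011 and 0.0033), while in primary tumors r was 0.31 and rho 0.34 (adjusted p = 0.18 and 0.17). Since muscle level and H19 moved together, the relation of H19 and Igf2 in transplants was not separated from it here.

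**Figure D4:**
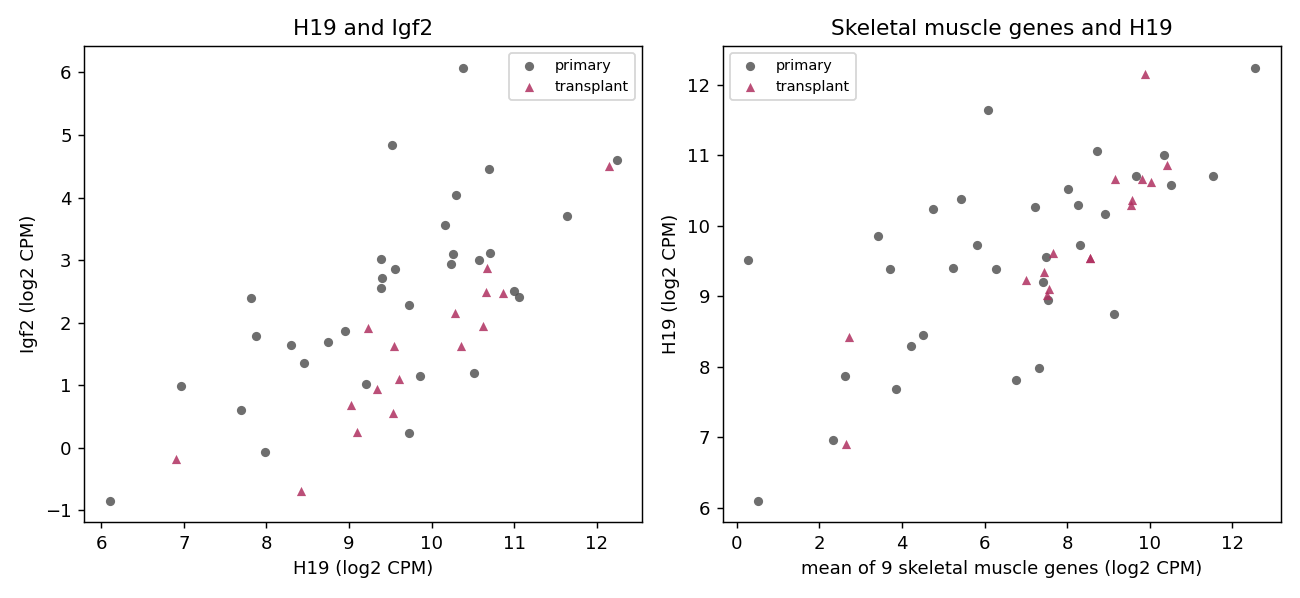
Left, Igf2 against H19, and right, H19 against the mean of 9 skeletal muscle genes, as log2 CPM in each of the 32 primary tumors and 16 transplants. H19 rises with the muscle genes in both models (r = 0.66 and 0.88).

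The family also held 3 other pairs, chosen by position or known regulation. The rest of the pairs were not tested, among them Peg3 and Plagl1 with a rho of 0.89 in the 16 transplants. Peg10 and Sgce had r = 0.56 in primary tumors (permutation test, adjusted p = 0.0065) but rho = 0.31 (adjusted p = 0.20). This r fell to 0.23 with the 2 most distant libraries by Peg10 left out. For deviations from the treatment-group means r was 0.68 (permutation test, adjusted p = 0.00028) and rho 0.60, so the relation depended on how it was measured. In transplants r of Peg10 and Sgce was 0.49 (permutation test, adjusted p = 0.15) and -0.04 without 2 libraries. For deviations from the group means it was 0.56 (permutation test, adjusted p = 0.071). Plagl1 and Igf2 had r = 0.85 and rho = 0.81 in transplants (permutation test, adjusted p = 0.00028 and 0.0020), r = 0.71 without 2 libraries, and r = -0.00 in primary tumors (adjusted p = 0.99). Plagl1 also had r = 0.61 with the muscle genes in transplants (permutation test, adjusted p = 0.045), which fell to 0.18 without the 2 end libraries. Igf2 and Cdkn1c had r = 0.30 in primary tumors and -0.15 in transplants (permutation test, adjusted p = 0.18 and 0.69). The remaining relations with muscle did not pass the threshold in Pearson's r, but some passed it by another measure. Ndn in transplants had r = 0.43 (permutation test, adjusted p = 0.18) but rho = 0.72 (adjusted p = 0.0085). Sgce in primary tumors had r = -0.32 (permutation test, adjusted p = 0.17), and -0.54 without the 2 end libraries (adjusted p = 0.0090). Peg3 in transplants had r = 0.55 (permutation test, adjusted p = 0.072), and 0.71 for deviations from the group means (adjusted p = 0.0085).

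The genes with the most similar pattern over the 32 primary tumors are named as a description. For H19 they were Gm27483 (rho = 0.96) and Gm27786 (0.92), short annotated RNA genes that overlap H19 on the opposite strand, and then Tpm2, a tropomyosin of muscle (0.80). For Ndn the first was Peg12 (0.80), an imprinted neighbor on chromosome 7, whose rho with Ndn in transplants was -0.40. For Sgce it was Mbtps1 (0.81, and 0.17 in transplants) and for Igf2 the adhesion gene Cadm4 (0.74, and 0.60 in transplants). For Mest they were Rap1gds1 and Chst2 (both 0.72), and for Grb10 it was Tnfaip1 (0.70). For Peg10 it was Vcan, which encodes the matrix proteoglycan versican (0.68), for Cdkn1c Ltc4s (0.65) and for Plagl1 Kdm4b (0.60). For Peg3 they were F11r (0.66) and the endothelial genes Angpt2 (0.66) and Emcn (0.65), with 0.35, 0.64 and 0.32 in transplants.

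Of 49 other imprinted genes 45 were tested, and 16 were lower and 4 higher in transplants (averaged), with a median log2 fold change of -0.19, beside 19.1% lower and 15.7% higher among all genes. Igf2r, which clears IGF2 from the cell surface, was at 115.7 ± 34.9 CPM (SD, n = 16) in transplants and 285 ± 129 CPM (n = 32) in primary tumors (log2 fold change -1.29 ± 0.20, edgeR adjusted p = 3.04e-06). Near Peg10 and Sgce on chromosome 6, Ppp1r9a (-1.64 ± 0.24) and Tfpi2 (-1.41 ± 0.24) were lower and Asb4 (0.90 ± 0.22) was higher. Sfmbt2 (-1.67 ± 0.22) and Rasgrf1 (-1.46 ± 0.38) were lower, and Nnat (1.58 ± 0.42) and Blcap (0.33 ± 0.08) were higher. After radiation 3 were higher and 4 lower in primary tumors, where 31% of all genes were called, and 0 were called by edgeR in transplants, where 7.23% were.

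In the IGF pathway 18 of 19 genes were tested, and 3 were higher and 4 lower in transplants, a share near the background of 15.7% higher and 19.1% lower. The receptor genes Igf1r (113.6 ± 47.3 CPM in transplants and 105.98 ± 54.0 in primary tumors) and Insr (42.44 ± 10.73 and 42.39 ± 13.54) and the ligand gene Igf1 (66.5 ± 73.0 and 59.5 ± 49.95) were not called. Igfbp4 (log2 fold change 1.49 ± 0.16) and Igfbp3 (0.88 ± 0.23), which encode IGF binding proteins, were higher. Pappa2 (1.22 ± 0.45), which encodes a protease of some IGF binding proteins, was also higher. Igfbp2 (-3.03 ± 0.45), Igf2r, Grb14 (-0.72 ± 0.25) and the receptor substrate Irs1 (-0.67 ± 0.17) were lower. Among 14 tested genes that set or keep imprints, 2 were called, where 34.8% of all genes were. Ctcf was higher (0.21 ± 0.07) and Dnmt3b lower (-0.31 ± 0.13) in transplants.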

How the data were processed

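RNA-seq counts of 50 mouse libraries were used. The deposited values are raw read counts per gene, which the authors made, per the labels and methods, from poly(A)-selected stranded libraries processed with Trimmomatic 0.36, STAR and HTSeq on mm10 with GENCODE annotation; the strand setting was not given in the sources used here. Coordinates and exon lengths came from GENCODE on GRCm38, and start windows from RefSeq. Groups were taken from the labels, whose replicates are separate tumors. The 10 genes and all lists were chosen with earlier results of these data known.

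Counts of the 48 tumors were fitted with edgeR 4.0.16 (filterByExpr with a minimum count of 10, TMM, robust quasi-likelihood, 1 mean per group), which left 19327 genes; scripts were tested on simulated counts. Log2 CPM used a prior count of 2. The naming rule took all 10 members, from each other list the genes called in the averaged model comparison (average log2 CPM of at least 0, up to 5 a direction) plus Igf1, Igf1r, Igf2r, Insr, Igf2bp2 and Cdkn1a, and for each member the 3 genes of highest Spearman's rho over the primary tumors, of which the leading ones are named. Correlations used 100000 permutations (SciPy) over 28 relations. Alternatives were DESeq2 1.42.0, its size factors, no filter, limma 3.58.1 voom, a muscle covariate, only the groups compared, the library labelled parental tumor added to the untreated primary tumors, and each tumor left out. Replicate numbers were given in accession order and pair no samples.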

Additional observations from a re-analysis of the deposited data

Results flagged for a closer look

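The level of each of the 10 genes was examined for a sample far from its group in 80 groups (10 genes in 8 groups), as the gap on the log2 CPM scale between an end sample and its neighbor, divided by the range of the group. In 4 groups 1 sample stood apart, and chance alone would give about 1 in 20 groups.

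Ndn in untreated primary tumors had replicate 7 at 1.03 CPM with the next tumor at 30.2 CPM, a gap of 0.618 of the range. The same tumor had the highest Peg3 of its group, 27.1 CPM. Peg10 in primary tumors given anti-PD-1 and 20 Gy had replicate 4 at 4.11 CPM with the next at 31.4 CPM, a gap of 0.585 of the range. The same tumor had the highest H19 (4846 CPM) and the lowest Sgce (19.5 CPM) of the 32 primary tumors, and the highest summed skeletal muscle level.

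Among transplants, H19 with anti-PD-1 at 0 Gy had replicate 1 at 1580 CPM with the next at 747 CPM, a gap of 0.843 of the range. Peg10 in untreated transplants had replicate 3 at 14.5 CPM with the next at 7.38 CPM, a gap of 0.832 of the range.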

How the results depend on the processing

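Of 24 printed member differences past the threshold, 15 kept their direction and call under every alternative run and every library left out, among them the averaged model differences of Cdkn1c, Plagl1, Grb10, Peg10, Sgce and Ndn and the radiation effect on Mest in primary tumors. The number of members called moved by over 1.5 times in a few cases, of which the cause was not tested: 3 for untreated tumors with limma voom (9.21% of all genes called), 5 for isotype at 20 Gy with DESeq2 (7.5%), 0 for anti-PD-1 at 20 Gy when only its own groups were fitted (0.0113%, or 2 genes), 1 for radiation in primary tumors with the library labelled parental tumor added (31.7%), and 2 for radiation in transplants when only their groups were fitted (13.7%). With 1 library left out, the number for radiation in primary tumors ran from 2 to 4, with 4 without anti-PD-1 at 20 Gy replicate 1 (33%). Of differences that were not called, H19 between models turned to -0.37 with the muscle covariate and ran from -0.17 to 0.28 with 1 library left out, Mest between models turned to 0.017 with limma voom, and r of Peg10 and Sgce in transplants turned to -0.036 without the 2 end libraries. Igf2 between models was not called without the filter (adjusted p = 0.0763), with limma voom (0.170) or with the library labelled parental tumor added (0.0765). The markers of that library went against its label. No paired analysis was possible because the replicate numbers follow accession order only. Low counts limit Igf2 (24 counts in the lowest transplant), Plagl1 (28) and Peg3 (5 in the lowest primary tumor).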

Other observations

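The 6 other genes listed as inhibitors of cyclin-dependent kinases, the family of Cdkn1c, were called in both directions. Between the models 15.7% of all genes were called higher and 19.1% lower. Averaged over treatments Cdkn2a (log2 fold change -1.45 ± 0.22) and Cdkn2b (-1.28 ± 0.19) were lower in transplants, and Cdkn2c (0.53 ± 0.15), Cdkn2d (0.51 ± 0.10) and Cdkn1b (0.43 ± 0.08) were higher. Cdkn1a, a p53 target, was not called between the models (0.16 ± 0.14, edgeR adjusted p = 0.398). It rose after radiation in primary tumors by 2.33 ± 0.17 (edgeR adjusted p = 1.25e-13) and in transplants by 1.75 ± 0.23 (edgeR adjusted p = 3.89e-06). The other 5 were all lower in primary tumors after radiation, where 14.2% of all genes were called lower and 16.8% higher.

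Among fetal growth regulators 8 of 9 genes were tested, and Igf2bp2 (-0.52 ± 0.18), Plag1 (-0.62 ± 0.22) and Hmga1 (-0.51 ± 0.19) were lower in transplants, while 1 gene was higher. Of the remaining marker lists, 2 of 2 satellite cell genes and 2 of 4 adipose genes were higher in transplants (averaged), and 0 of 4 nerve glia genes were called by edgeR. The satellite cell genes were near the floor, with a median summed level of 0.731 CPM in transplants and 0.0589 CPM in primary tumors. The shares of all genes in this comparison were 15.7% higher and 19.1% lower.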
